A study of Homo sapiens with 2 samples.

Results

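The EGF receptor family, its ligands and the receptor MET were followed in digital gene expression (DGE) libraries of A549, an established human lung adenocarcinoma cell line. The members were chosen by gene symbol and were the receptors EGFR, ERBB2 and ERBB3, the ligands EGF, AREG, EREG, HBEGF and TGFA, and MET, which made 9 of the 13137 genes listed. The study examined mRNA after silencing of the transcription factor SOX2, with 1 library labelled shRNA-SOX2 (line A549-H1tetO-shRNA-SOX2, carrying a hairpin against SOX2) and 1 labelled shRNA-Con (line A549-H1tetO-shRNA-Con, carrying a scrambled hairpin). Both lines were lentivirally infected, puromycin-selected polyclonal pools with the hairpin under the doxycycline-inducible H1TetO promoter, and both received doxycycline for 4 days, so that the control also carried the vector, the selection and the drug. There was no replicate library, and every test below compares these 2 libraries and not the conditions.

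The targeted gene was examined before the members. SOX2 had 16 tags in shRNA-Con against 23 tags in the library labelled shRNA-SOX2. Levels are given as tags per 1000000 gene tags of a library (CPM), and the CPM of SOX2 was 1.58 times as high in the latter (95% interval 0.800 to 3.20, adjusted p = 0.333, Fisher's exact test, two-sided, with p-values adjusted by Benjamini-Hochberg for all genes listed), so the label was not borne out by a lower SOX2 tag level, and the column headings give only initials. The library is therefore called "the library labelled shRNA-SOX2" throughout. Gene tags totalled 2304184 in shRNA-Con against 2093816 in the library labelled shRNA-SOX2. A gene with 0 tags can have been present at up to 3 tags, which is 1.30 CPM in shRNA-Con against 1.43 in the library labelled shRNA-SOX2. Of the epithelial markers, KRT8 and KRT18 were among the abundant genes in both libraries, CDH1 had 50 tags in each and EPCAM had 8 in shRNA-Con against 4 in the library labelled shRNA-SOX2. Of these 6 markers, KRT8 and KRT19 were called higher and KRT7 and KRT18 lower, and their summed level was 9553 CPM in shRNA-Con against 10700 in the library labelled shRNA-SOX2. Markers of other cells summed to 13 and 12 tags for blood cells (2 of 5 genes had a row), 46 and 52 for fibroblasts (2 of 5) and 3 and 0 for endothelium (1 of 4), in shRNA-Con and the library labelled shRNA-SOX2. Among the markers with no row were CD3E, HBB, COL1A2, COL3A1, DCN, CDH5, VWF and CLDN5. The part of these keratin differences in the members' values was not tested.

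EGFR is a receptor tyrosine kinase at the cell surface that pairs with itself or with ERBB2 or ERBB3 when a ligand binds. ERBB2 has no known ligand of its own and ERBB3 has little kinase activity, so both signal as partners within pairs. The ligands are made as membrane-bound precursors and are released by proteases such as ADAM17, after which the receptors signal through RAS and ERK and through PI3K and AKT. MET is the receptor of hepatocyte growth factor (HGF) and drives the same routes, and EGFR and MET are both known drivers and drug targets in lung adenocarcinoma.

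Windows from 250 bases before to 50 bases after a transcription start were taken from RefSeq (GRCh38.p14) and were found for 8 of the 9 members, with 10 windows in all since EGFR and TGFA each had an upstream and a downstream window. Those of the 5 members called below are shown because these members are the ones whose tags changed, with the upstream window for EGFR. Capitals mark matches to the letters searched, on either strand. These were the cyclic AMP response element TGACGTCA, held by 1.85% of all 35116 RefSeq windows, the AP-1 element TGANTCA (7.71%), the SOX-type cores CATTGT (10.8%) and CTTTGT (16.1%), the GC box GGGCGG (45.0%) and the TATA box TATAAA (11.5%). The windows, all on the plus strand, were chr4:74444886-74445185 for AREG, chr4:74364895-74365194 for EREG, chr4:109912633-109912932 for EGF, chr7:55018767-55019066 for the upstream start of EGFR and chr7:116671946-116672245 for MET.
AREG: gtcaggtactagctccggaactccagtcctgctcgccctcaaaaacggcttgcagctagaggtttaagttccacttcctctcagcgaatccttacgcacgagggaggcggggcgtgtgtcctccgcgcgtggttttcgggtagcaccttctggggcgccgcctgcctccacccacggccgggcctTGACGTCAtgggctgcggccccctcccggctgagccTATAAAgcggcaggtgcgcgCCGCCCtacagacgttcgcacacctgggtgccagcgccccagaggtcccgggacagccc
EREG: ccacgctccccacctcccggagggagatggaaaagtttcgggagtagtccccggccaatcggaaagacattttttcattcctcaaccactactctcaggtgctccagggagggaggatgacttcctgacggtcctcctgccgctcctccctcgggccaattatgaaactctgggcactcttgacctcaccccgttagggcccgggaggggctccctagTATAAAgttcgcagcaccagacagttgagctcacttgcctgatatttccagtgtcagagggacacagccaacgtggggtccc
EGF: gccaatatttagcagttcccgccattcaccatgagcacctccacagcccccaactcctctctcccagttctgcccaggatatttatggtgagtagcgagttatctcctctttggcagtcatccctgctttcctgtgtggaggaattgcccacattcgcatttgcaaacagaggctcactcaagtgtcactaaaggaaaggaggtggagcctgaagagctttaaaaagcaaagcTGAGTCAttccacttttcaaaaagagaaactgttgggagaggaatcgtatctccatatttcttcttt
EGFR: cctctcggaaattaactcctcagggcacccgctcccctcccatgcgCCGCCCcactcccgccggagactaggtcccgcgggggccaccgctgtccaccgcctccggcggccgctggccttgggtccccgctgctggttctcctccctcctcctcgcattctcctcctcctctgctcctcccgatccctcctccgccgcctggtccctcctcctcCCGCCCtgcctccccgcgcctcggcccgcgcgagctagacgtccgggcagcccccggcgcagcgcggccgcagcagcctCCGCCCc
MET: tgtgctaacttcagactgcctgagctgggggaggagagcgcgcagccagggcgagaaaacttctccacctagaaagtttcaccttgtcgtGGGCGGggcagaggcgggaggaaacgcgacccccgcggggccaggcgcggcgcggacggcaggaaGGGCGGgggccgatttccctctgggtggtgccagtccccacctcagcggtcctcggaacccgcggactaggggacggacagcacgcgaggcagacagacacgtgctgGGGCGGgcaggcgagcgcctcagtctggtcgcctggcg
The AREG window held the cyclic AMP response element 65 bases before the start, a TATA box and a GC box. EREG held a TATA box and none of the other motifs, and EGF held an AP-1 match, TGAGTCA, and none of the others. The printed EGFR and MET windows held 3 GC boxes each and no TATA box, and no matches overlapped in the printed windows. The downstream EGFR window (chr7:55109589-55109888, not printed) held 2 AP-1 matches and 2 TATA boxes and no GC box. The share of G and C was 66.3% for AREG, 57.7% for EREG, 46.7% for EGF, 75.3% for EGFR and 69.3% for MET, against a median of 58.7% over all windows. The core CATTGT was in 0 of the 10 windows of the members, and CTTTGT was matched only in the downstream TGFA window. Such matches describe the letters of these windows and do not show binding.

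In the table of tags, 4 of the 9 members were lower at a false discovery rate (FDR) of 0.001 in the library labelled shRNA-SOX2, namely EGFR, AREG, EREG and MET, and 1 was higher, EGF. ERBB2, ERBB3, HBEGF and TGFA did not pass. Of all genes listed, 21.7% passed in either direction, with 12.2% lower and 9.53% higher. All 4 members with 100 to 1000 tags in the libraries together were called lower, against 20.6% of all genes with that many tags. The members were chosen with earlier results of these data known, so these counts only describe them. The 4 lower members each fell by at least 1 on the log2 scale, as did 13.0% of the genes with at least 20 tags, and HBEGF was the 1 member of at least 20 tags with a value of 1 or more above 0, against 10.4% of such genes. EGFR and EGF were also named in the study's account of these libraries, so their directions are not independent evidence. The median log2 fold change of the 9 members was -0.79, with EGF at its lower bound, and that of all genes with at least 20 tags was -0.10.

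**Figure D1:**
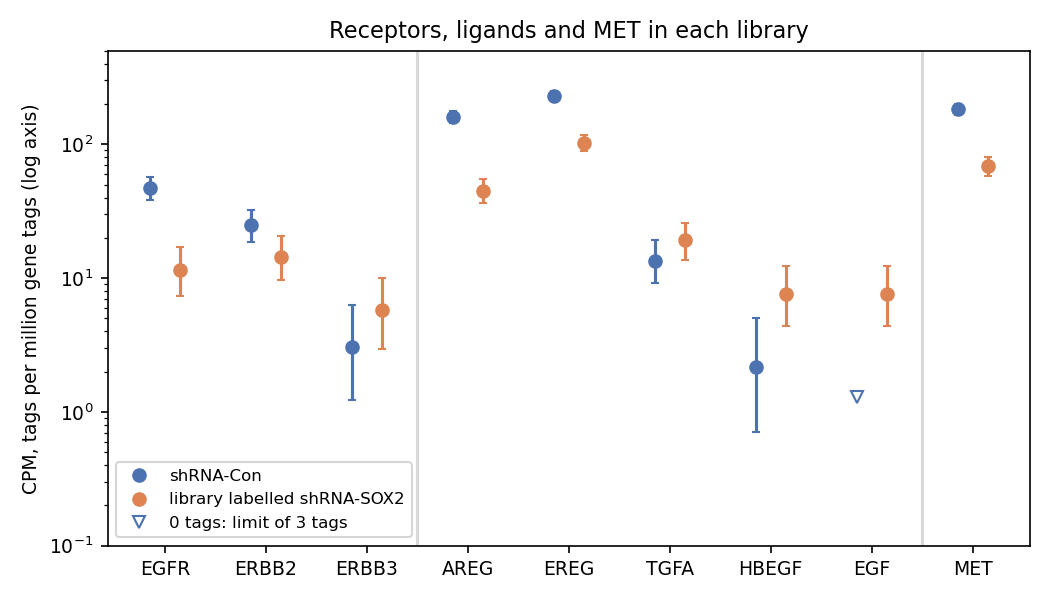
CPM (log axis) of the 9 members in shRNA-Con (blue) and the library labelled shRNA-SOX2 (orange), with receptors, ligands and MET separated by grey lines. Bars are 95% exact intervals for counting error and the open triangle is the limit of 3 tags where EGF had 0 tags. EGFR, AREG, EREG and MET lie lower, with no overlap of the bars, in the library labelled shRNA-SOX2, and EGF lies above the limit in shRNA-Con.

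Among the receptors, EGFR fell and its partners did not pass the test. EGFR (gene ID 1956, chr7:55019017-55211628, in GRCh38.p14 as for all gene positions here) had 108 tags in shRNA-Con against 24 in the library labelled shRNA-SOX2, which is 46.9 CPM (95% interval 38.4 to 56.6) and 11.5 (7.34 to 17.1). These intervals do not overlap, and EGFR stood 175th from the lowest log2 fold change among the 10045 genes with at least 20 tags. Its level was 4.09-fold lower (2.61 to 6.66), or -2.03 on the log2 scale (-2.73 to -1.38, adjusted p = 3.21e-11, Fisher's exact test). All intervals and limits here cover counting error only, and the spread between cultures of one line was not measured. In a bulk library, fewer cells that express a gene and less RNA of it per cell cannot be told apart.

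ERBB2 (chr17:39688094-39728658), the preferred partner of the other receptors, had 57 tags in shRNA-Con against 30 in the library labelled shRNA-SOX2, or 24.7 and 14.3 CPM. The log2 fold change of ERBB2 was -0.79 (-1.48 to -0.13, adjusted p = 0.0478, Fisher's exact test), which passes an FDR of 0.05 and not 0.001. With TMM scaling of the libraries ERBB2 did not pass 0.05 either (adjusted p = 0.0769, Fisher's exact test). ERBB3 (chr12:56080108-56103505), the partner that couples strongly to PI3K, had 7 and 12 tags, or 3.04 and 5.73 CPM. At this depth the log2 fold change of ERBB3 was 0.92 with an interval from -0.55 to 2.50 (adjusted p = 0.381, Fisher's exact test), so that a 2-fold difference in the higher direction lies within its counting error.

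Ratios between receptors within a library do not depend on how the libraries are scaled. EGFR had 1.89 tags for each tag of ERBB2 in shRNA-Con against 0.80 in the library labelled shRNA-SOX2. The latter ratio was 0.422 of the former (0.215 to 0.827), and for EGFR against ERBB3 the corresponding value was 0.130 (0.0395 to 0.407). EGFR made 62.8% (55.1 to 70.0) of the tags of the 3 receptors in shRNA-Con against 36.4% (24.9 to 49.1) in the library labelled shRNA-SOX2, where ERBB2 made 45.5%. The summed level of the 3 receptors went from 74.6 to 31.5 CPM, a log2 difference of -1.24 (-1.68 to -0.83).

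The ligands did not all move one way. AREG and EREG encode amphiregulin and epiregulin and lie beside each other on chromosome 4. Among the 5 member ligands they were the abundant ones and fell, whereas EGF rose from 0 tags. AREG (chr4:74445136-74455005) had 368 tags in shRNA-Con against 94 in the library labelled shRNA-SOX2, or 159.7 (144 to 177) and 44.9 (36.3 to 54.9) CPM. Its level was 3.56-fold lower (2.83 to 4.51), or -1.83 on the log2 scale (-2.17 to -1.50, adjusted p = 2.31e-32, Fisher's exact test). The assembly used for annotation lists AREGB, the name of a near-identical copy, as a synonym of AREG, and how tags common to such copies were counted is not given in the sources used here, so the AREG count is uncertain in that respect.

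EREG (chr4:74365145-74388749) had 526 tags in shRNA-Con against 215 in the library labelled shRNA-SOX2, or 228 and 102.7 CPM. It was the member with the most tags in both libraries, and its level was 2.22-fold lower (1.89 to 2.62) in the library labelled shRNA-SOX2, or -1.15 on the log2 scale (adjusted p = 2.08e-23, Fisher's exact test). AREG fell further than EREG, since the ratio of AREG to EREG tags was 0.700 in shRNA-Con against 0.437 in the library labelled shRNA-SOX2, a change by a factor of 0.625 (0.468 to 0.830).

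EGF (chr4:109912883-110013766), the founding ligand of the family, had 0 tags in shRNA-Con against 16 in the library labelled shRNA-SOX2, or 0 (exact 95% interval up to 1.60) and 7.64 (4.37 to 12.4) CPM. EGF was 5.87-fold higher in the library labelled shRNA-SOX2 when set against the limit of 3 tags, and at least 4.24-fold higher by the lower end of the exact interval (adjusted p = 4.32e-05, Fisher's exact test). No gene named here had a single tag in a library, and whether single tags were left out of the counts was not established. The exact interval of EGF does not allow for such a step. HBEGF (chr5:140332843-140346603), the heparin-binding ligand, had 5 and 16 tags, or 2.17 and 7.64 CPM. The log2 fold change of HBEGF was 1.82 (0.30 to 3.62, adjusted p = 0.0395, Fisher's exact test), so HBEGF passed an FDR of 0.05 and not 0.001. TGFA (chr2:70447284-70553826), which encodes transforming growth factor alpha, had 31 and 40 tags, or 13.5 and 19.1 CPM. Its log2 fold change of 0.51 had an interval from -0.21 to 1.23 (adjusted p = 0.273, Fisher's exact test) that includes 0.

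**Figure D2:**
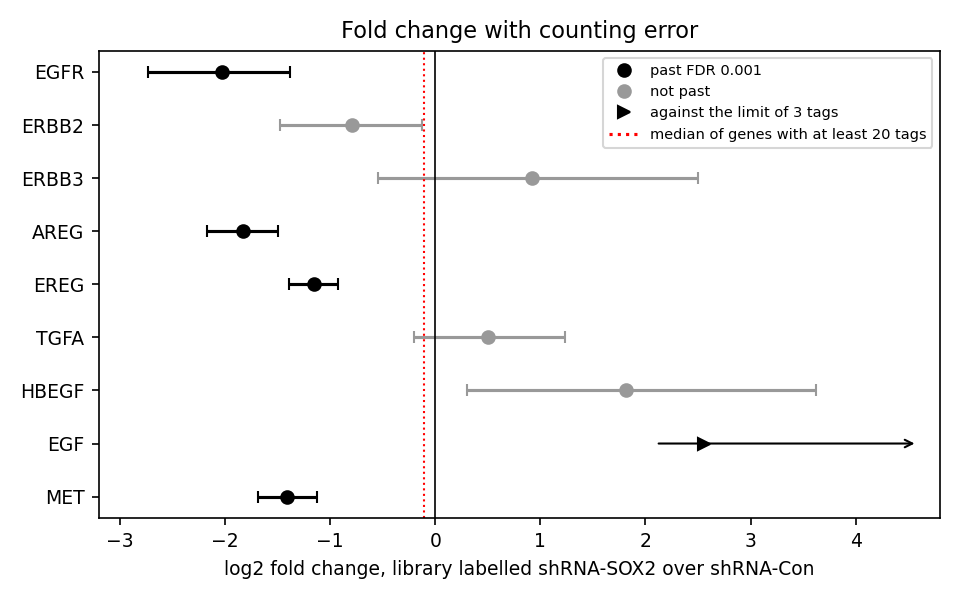
Log2 fold change of each member, library labelled shRNA-SOX2 over shRNA-Con, with 95% exact intervals for counting error (for EGF the triangle is the value against the limit of 3 tags and the arrow has no upper end). Black symbols passed FDR 0.001, grey ones did not, and the dotted line is the median of genes with at least 20 tags, -0.10.

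The makeup of the pool of the 5 member ligands differed between the libraries while its total was lower. NRG1, an ErbB ligand outside this pool, had 302 tags in shRNA-Con against 209 in the library labelled shRNA-SOX2. The 5 ligands summed to 404 CPM in shRNA-Con against 182 in the library labelled shRNA-SOX2, which is a log2 difference of -1.15 (-1.33 to -0.98). AREG and EREG together made 96.1% (94.7 to 97.3) of the ligand tags in shRNA-Con against 81.1% (76.8 to 84.9) in the library labelled shRNA-SOX2. EREG held a like share in both, 56.6% (53.3 to 59.8) and 56.4% (51.3 to 61.5). The share of AREG was 39.6% (36.4 to 42.8) in shRNA-Con against 24.7% (20.4 to 29.3) in the library labelled shRNA-SOX2, with no overlap of the intervals. TGFA made 3.33% (2.28 to 4.70) and 10.5% (7.61 to 14.0), and HBEGF 0.538% (0.175 to 1.25) and 4.20% (2.42 to 6.73). EGF made 0% in shRNA-Con, which allows up to 0.323% by the limit of 3 tags and 0.396% by the exact interval, and 4.20% in the library labelled shRNA-SOX2. Shares of 1 total move together by construction, so that a lower share of AREG raises the others.

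**Figure D3:**
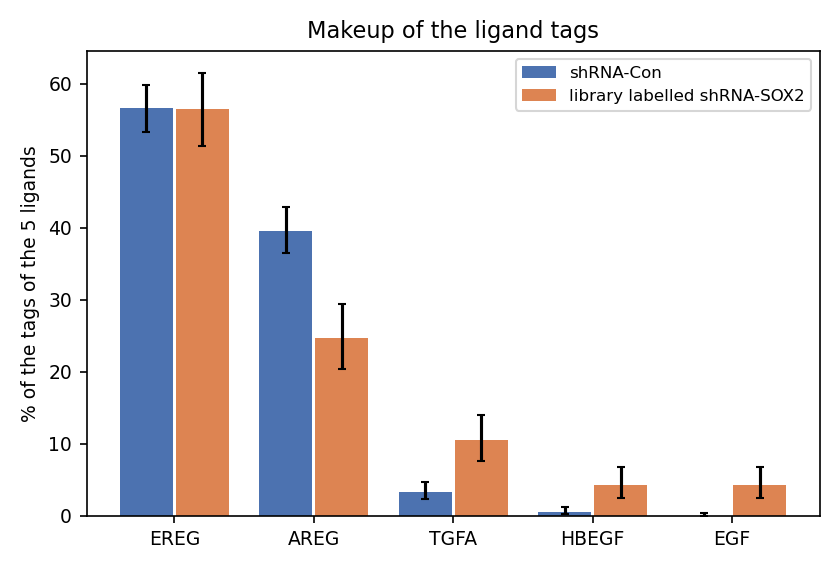
Share of each ligand in the tags of the 5 ligands, in percent, in shRNA-Con (blue) and the library labelled shRNA-SOX2 (orange), with 95% Clopper-Pearson intervals for counting error. EREG makes 56.6% and 56.4%, and AREG makes 39.6% and 24.7%.

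MET (chr7:116672196-116798377), which lies on the same chromosome as EGFR, had 420 tags in shRNA-Con against 144 in the library labelled shRNA-SOX2, or 182 and 68.8 CPM. The level was 2.65-fold lower (2.19 to 3.23), or -1.41 on the log2 scale (-1.69 to -1.13, adjusted p = 2.67e-25, Fisher's exact test). MET had 3.89 tags for each EGFR tag in shRNA-Con against 6 in the library labelled shRNA-SOX2. The change of this ratio, by a factor of 1.54, had an interval from 0.940 to 2.61 that includes 1, so a difference in size between the decreases of MET and EGFR was not detectable at this depth.

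In DGE a tag is read from a fixed site of an mRNA, so that tag counts do not scale with transcript length, but differences between genes in capture and amplification were not measured, and the order below is one of tags. In shRNA-Con the order of the members by tags was EREG, MET, AREG, EGFR, ERBB2, TGFA, ERBB3, HBEGF and EGF. The neighbours MET and AREG (ratio 1.14, 0.990 to 1.32), ERBB3 and HBEGF (1.40, 0.382 to 5.59), and HBEGF and EGF did not differ beyond their counting error there. In the library labelled shRNA-SOX2 EREG, MET and AREG kept the upper places and each differed from the next, and AREG differed from TGFA (ratio 2.35, 1.61 to 3.49). From TGFA through ERBB2, EGFR, EGF, HBEGF and ERBB3 no pair of neighbours differed beyond counting error, for example TGFA and ERBB2 (1.33, 0.810 to 2.22) or EGFR and EGF (1.5, 0.764 to 3.02). EGFR stood between AREG and ERBB2 in shRNA-Con and between ERBB2 and EGF in the library labelled shRNA-SOX2.

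**Figure D4:**
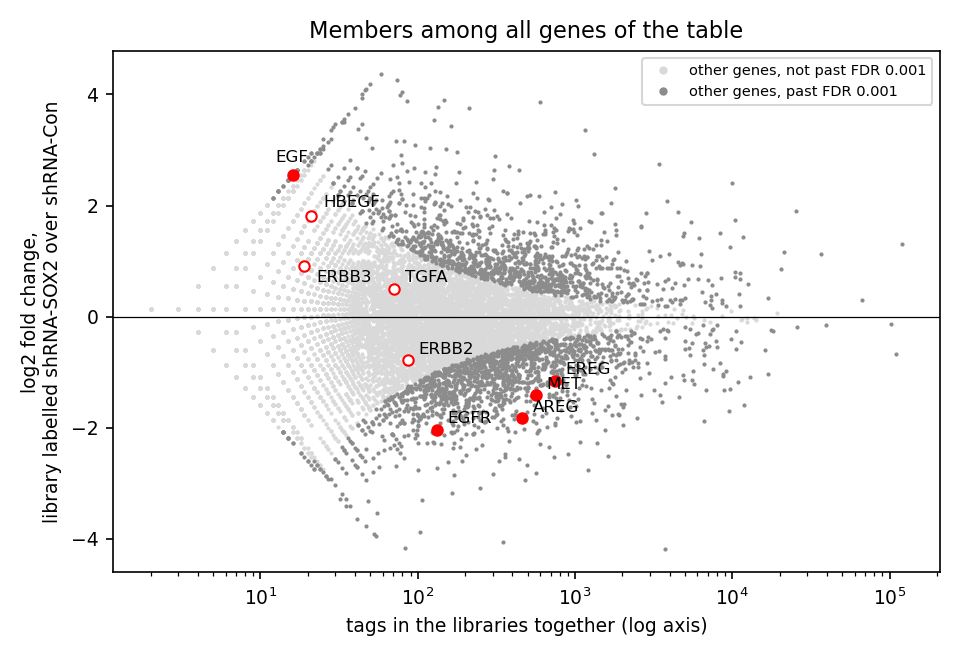
Tags in the libraries together (log axis) against the log2 fold change for all 13137 genes, with a count under 3 tags set to 3. Filled red circles are members past FDR 0.001 and open ones are the other members. EGFR, AREG, EREG and MET lie below 0 among the genes past the threshold, at -2.03, -1.83, -1.15 and -1.41.

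The remaining genes of the pathway were taken from lists by role, whose median log2 fold changes stand beside -0.08 for the 11984 genes of the table with more than 3 tags in a library. Of the other ErbB receptor and ligands, NRG1, which encodes the ERBB3 and ERBB4 ligand neuregulin 1, had 302 tags in shRNA-Con against 209 in the library labelled shRNA-SOX2, which is a log2 difference of -0.39 that did not pass (adjusted p = 0.00900, Fisher's exact test). ERBB4 and NRG3 had 2 and 0 tags each, and BTC, EPGN, NRG2 and NRG4 had no row. HGF, the ligand of MET, had no row, the related ligand gene MST1 had 2 and 0 tags and the HGF activator HGFAC 0 and 2. Of the 8 listed genes of the MET ligand and its activation, 6 had a row and 3 had at least 20 tags. SPINT2, an inhibitor of the proteases that activate HGF, rose from 567 to 817 tags (log2 fold change 0.67, adjusted p = 3.55e-16, Fisher's exact test). None of the 6 was called lower.

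Of 9 genes of ligand shedding, RHBDF1, which encodes iRhom1, a partner of ADAM17, rose from 59 to 153 tags (log2 fold change 1.51, adjusted p = 7.39e-12, Fisher's exact test). The main sheddases did not pass, with 75 and 52 tags for ADAM17 and 100 and 74 for ADAM10. The median of the list was -0.07, and -0.18 over its 8 genes with at least 20 tags.

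Of 34 adaptors and signal enzymes, 5 were called lower and 2 higher, next to 12.2% lower and 9.53% higher of all genes, with a median log2 fold change of -0.08. The lower ones were CRKL (82 to 19 tags, -1.97), an adaptor, SOS2 (84 to 28 tags, -1.45), an exchange factor for RAS, STAT5B (103 to 41 tags, -1.19), MAP2K1 and PTPN11. The higher ones were PIK3R1, the regulatory subunit of PI3K (22 to 58 tags, 1.54), and the adaptor SHC1 (286 to 370 tags, 0.51).

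Of 22 receptor inhibitors and degradation genes, 4 were called lower and 2 higher, next to 12.2% lower and 9.53% higher of all genes, with a median of -0.30. PTPN2, a tyrosine phosphatase (128 to 41 tags, -1.50), TSG101 (194 to 95, -0.89) and SH3KBP1 (386 to 207, -0.76), which act in receptor sorting and uptake, fell together with EPN1. The phosphatase PTPRK (100 to 188 tags, 1.05) and ERRFI1 (267 to 388, 0.68), which encodes the direct EGFR inhibitor MIG6, rose. CBL, the ubiquitin ligase of EGFR and MET, had 101 and 50 tags and did not pass.

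Of 16 ERK target genes, 5 were called lower and 1 higher, with a median of -0.30. Of all genes 12.2% were called lower and 9.53% higher, and of those with 100 to 1000 tags 20.6% lower. Whether this list stands apart from those shares was not tested. DUSP5, a nuclear ERK phosphatase, fell from 383 to 59 tags (log2 fold change -2.56, adjusted p = 7.16e-51, Fisher's exact test), FOSL1 from 115 to 36 (-1.54) and IER3 from 488 to 267 (-0.73), together with DUSP4 and PHLDA1. FOS rose from 786 to 1274 tags (0.83), and DUSP6, another ERK phosphatase, had 42 and 45 tags and did not pass.

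Of 25 other receptor tyrosine kinases, RYK (145 to 66 tags, or 0.501 of the CPM in shRNA-Con) and EPHA2 (311 to 175 tags, -0.69 on the log2 scale) fell, and EPHA4 rose from 0 to 46 tags. The median of the list was -0.07, and -0.39 over its 14 genes with at least 20 tags, next to -0.10 for all such genes. Among these 14, the log2 fold changes nearest to that of EGFR were those of NTRK3 (16 and 4 tags, -1.86), EPHB2 (68 and 28, -1.14) and ROR1 (16 and 7, -1.05), and none of these 3 passed the test. Over all 7 lists, 16 of 114 genes were called lower and 8 higher, which is 21.1% called, next to 21.7% of the whole table.

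**Figure D5:**
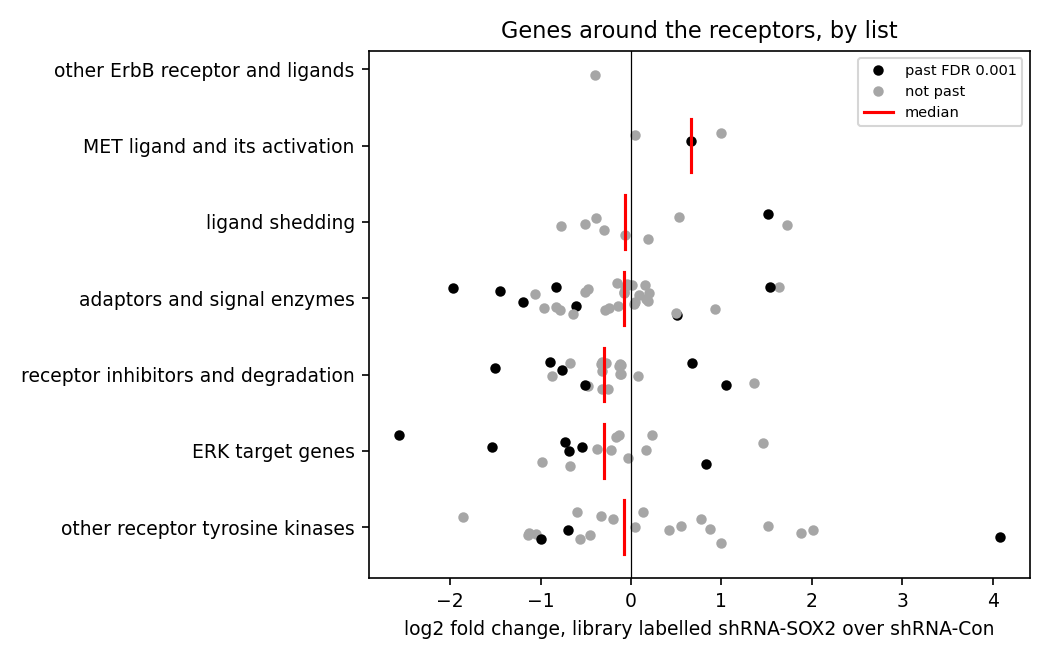
Log2 fold change, library labelled shRNA-SOX2 over shRNA-Con, of the genes around the receptors by list, for genes with more than 3 tags in a library. Black points passed FDR 0.001, grey ones did not, and red lines are list medians, drawn for lists of more than 1 such gene. The vertical scatter within a list has no meaning, and DUSP5 is the lowest point at -2.56.

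With 1 library of each kind these calls rest on counting error alone. If cultures of one line are assumed to vary with a coefficient of variation of 0.2, none of the 9 members passed FDR 0.001 by edgeR's exact test, with adjusted p-values of 0.00350 for AREG, 0.00540 for EGFR, 0.00582 for EGF, 0.0301 for MET and 0.0885 for EREG.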

How the data were processed

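mRNA of A549 cells was profiled by tag sequencing (DGE), from 4 µg total RNA per library by oligo(dT) selection at the Beijing Genomics Institute, with 1 library per condition. The authors deposited tag counts per Entrez Gene ID without normalization, and a TPM column, which is the count scaled by the authors to the clean tags of the whole library (3516266 for shRNA-Con, 3456234 for shRNA-SOX2) with 0 tags written as 0.01. The build hg19 is listed in the submitters' processing notes, and the aligner is not given in the sources used here. The column with the initials of shRNA-Con was read as that library and the other as shRNA-SOX2. The deposited log2 ratio, p-value and FDR of the authors' own comparison, and coordinates without a chromosome, were not used. The 13086 of 13137 gene IDs found in RefSeq were annotated on GRCh38.p14.

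Tags were divided by total gene tags, and fold changes have shRNA-Con as the denominator, with a count under 3 set to 3. Genes were tested by two-sided Fisher's exact tests with Benjamini-Hochberg adjustment over all 13137 genes at FDR 0.001, the study's threshold, and intervals are exact at 95%. Medians of lists use genes with more than 3 tags in a library. Tests and intervals came from scipy 1.17.1 (Python 3.11.15), TMM factors from edgeR 4.0.16 and median ratio scaling from DESeq2 1.42.0 in R 4.3.3. The main test was run on simulated counts with counting error only, which hold no spread between cultures. Alternatives were TMM, median ratio and clean-tag scaling, FDR 0.05, a minimum of 10 tags, a log2 fold change of at least 1, 0.5 added to counts, and edgeR's exact test with an assumed coefficient of variation of 0.1, 0.2 or 0.4. Members and lists were chosen with earlier results of these data known. Named were all members, the other ErbB and MET ligands, and from each list the genes past FDR 0.001, with values for up to 3 in each direction, plus the 3 receptor kinases nearest to EGFR. ADAM10, ADAM17, CBL and DUSP6 were named after their values were seen.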

Additional observations from a re-analysis of the deposited data

How the results depend on the processing

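The same 5 members (EGFR, EGF, AREG, EREG and MET) passed with TMM, median ratio and clean-tag scaling, a minimum of 10 tags, a log2 fold change of at least 1 and an assumed coefficient of variation of 0.1. An FDR of 0.05 gave 7 members, adding ERBB2 and HBEGF. With TMM and median ratio scaling ERBB2 did not pass 0.05 (adjusted p = 0.0769 and 0.0768, Fisher's exact test), whereas HBEGF did. With an assumed coefficient of variation of 0.2 or 0.4, edgeR's exact test called 0 members each time. By edgeR's exact test at 0.2, 6 members had an unadjusted p under 0.05, as did 2481 of the 13137 genes. At 0.4 these were 3 members (EGFR, EGF and AREG). Genes called over the whole table numbered 2849, against 4902 at FDR 0.05, 1570 with an added minimum of 1 in log2 size, and 1166, 113 and 0 with an assumed coefficient of 0.1, 0.2 and 0.4. At 0.4, 627 of the 13137 genes had an unadjusted p under 0.05, and the lowest adjusted p of a member was 0.411 (EGF, edgeR's exact test). Of the called genes 56.1% were lower, 49.4% with TMM and 66.6% with clean tags, as the median log2 fold change of genes with at least 20 tags was -0.10, -0.03 and -0.22. Among 45 recomputed member values, 5 lost their call, all at a coefficient of 0.2. No member changed sign. That was little tested, since the values at 0.2 repeat the main fold changes and each scaling shifts all genes by the same amount. The log2 fold change of EGF was 5.18 with 0.5 added to each count and 2.55 against 3 tags. The 18 recomputed list medians moved by less than the spread of their genes. No paired analysis was possible because there was 1 library on each side, and for the same reason no library could be left out. ERBB3, HBEGF and EGF had 19, 21 and 16 tags over both libraries. No gene with under 12 tags passed.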

Other observations

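Protein-coding genes within 1 Mb of AREG, EGFR and MET were examined after the members' values had been seen. Near AREG on chromosome 4, 4 of the 10 genes with a row had fallen in the library labelled shRNA-SOX2 and 0 had risen, where 12.2% of all genes were called lower and 9.53% higher, and 20.6% of those with 100 to 1000 tags lower. Besides EREG these were genes of chemokines that attract neutrophils, with 216 and 53 tags for CXCL8 (log2 fold change -1.89), 628 and 247 for CXCL5 (-1.21) and 228 and 104 for CXCL2 (-0.99), in shRNA-Con and the library labelled shRNA-SOX2. Near MET on chromosome 7, 4 of 7 were lower and 0 higher, to be read against the same shares, and whether either neighbourhood stands apart was not tested. The caveolin genes CAV1 (964 and 678 tags, -0.37) and CAV2 (1076 and 642, -0.61), TES (285 and 110, -1.24) and CAPZA2 (382 and 174) made these 4. CAV1 and CAV2 had more than 1000 tags in the libraries together, where smaller changes pass, and no share was computed for genes of that depth.

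Near EGFR 2 of 12 genes were lower and 2 higher, next to 12.2% lower and 9.53% higher of all genes. SEC61G (730 and 342 tags, -0.96) and CHCHD2 (592 and 243, -1.15) were lower, SUMF2 (519 and 973, 1.04) was higher, and NIPSNAP2 (284 and 354, 0.46) was higher except with clean-tag scaling. Like the caveolin genes, SEC61G and SUMF2 had more than 1000 tags in the libraries together, a depth for which no share was computed. Apart from RASSF6 and NIPSNAP2, the calls of the genes named here held with TMM and clean-tag scaling. No call held with an assumed coefficient of variation of 0.2.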
